A study of Mus musculus with 8 samples.

Results

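The tetraspanin genes were chosen by name. The set takes every protein-coding gene named Tspan followed by a number, together with Cd9, Cd37, Cd53, Cd63, Cd81, Cd82, Cd151, Upk1a and Upk1b, and holds 29 of the 55933 genes in the deposited table. The series holds RNA-seq of mammary epithelium from 4 control and 4 cKO mice, 1 library each, taken on pregnancy day 14.5. The cKO mice carried K14-rtTA, teto-Cre and Bmpr1a fl/fl and received doxycycline, so that the K14 promoter, which is active in the myoepithelial layer, switched on deletion of the BMP receptor gene Bmpr1a. The controls were littermates that the sample labels call wild type, and the labelled strain is C57BL/6 for both groups. The alleles of the controls, and whether they received doxycycline, are not given in the sources used here. Cells were released from the glands with collagenase and hyaluronidase, so each library represents all cells of the preparation, unsorted.

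Tetraspanins cross the membrane several times and gather other membrane proteins around them, among them integrins, immunoglobulin-like receptors, growth factor receptors and metalloproteases. The webs they form act in cell adhesion, membrane fusion, receptor traffic and the sorting of cargo into vesicles. In the mammary gland, Tspan8 is best known as a surface marker of a quiescent subset of mammary stem cells. The question asked here was whether the lower level of Tspan8 in cKO epithelium, which was known from earlier results of these data, was shared by the rest of the family.

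Levels are given as FPKM, which divides fragments by gene length and allows levels of different genes to be set side by side. Between libraries, the deposited values follow median-of-ratios size factors rather than the total of reads on genes. Between 16123108 and 19896988 reads lay on genes in each library. RNA of the targeted gene, Bmpr1a, was not lower in the libraries labelled cKO (mean 11.2 ± 1.01 FPKM, SD, n = 4) than in the control libraries (10.1 ± 1.28 FPKM). The table gives whole-gene values only, so the deleted part of the gene could not be read apart from the rest, and the directions below rest on the labels. Myoepithelial and luminal markers were abundant in both groups, with summed levels of 1607 to 2188 and 4757 to 5943 FPKM in control and 1511 to 2081 and 4618 to 5938 FPKM in cKO libraries. Markers of other cells were present too: the summed level of 9 leukocyte markers was 170 to 250 FPKM in control and 97.3 to 175 in cKO libraries, that of 6 endothelial markers 72.2 to 82.3 and 51.5 to 78.6, that of 6 fibroblast markers 441 to 920 and 299 to 713, and that of 5 adipocyte markers 77.5 to 119 and 98.4 to 129.9. Fabp4 alone, at 77.0 to 128 FPKM over all libraries, made up most of the adipocyte sum. The summed level of 5 milk protein genes was 2482 to 3363 FPKM in control and 4856 to 8019 in cKO libraries, without overlap.

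A pair of sequences is shown first, because the study concerns signalling through SMAD proteins and Tspan8 and Tspan5 are among the 4 members whose levels did not overlap between the groups. Tspan5 is shown as the only one of these 4 that holds either of the elements searched. They are the first 237 of the 250 bases before the RefSeq start of each gene, up to the next annotated exon, on the plus strand of GRCm38.p6, at chr10:115817034-115817270 for Tspan8 and chr3:138741958-138742194 for Tspan5. The Tspan8 window lies downstream of the 5′ end of the deposited gene, in an intron of 1 annotated transcript. Capitals mark GGCGCC, a GC-rich element bound by SMAD1 and SMAD5, and CAGAC or its reverse complement GTCTG, a short SMAD element.
Tspan8: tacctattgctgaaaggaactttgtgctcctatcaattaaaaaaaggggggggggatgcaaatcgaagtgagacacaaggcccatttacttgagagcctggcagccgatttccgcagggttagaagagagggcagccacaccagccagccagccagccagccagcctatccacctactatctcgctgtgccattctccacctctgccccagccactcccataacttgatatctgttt
Tspan5: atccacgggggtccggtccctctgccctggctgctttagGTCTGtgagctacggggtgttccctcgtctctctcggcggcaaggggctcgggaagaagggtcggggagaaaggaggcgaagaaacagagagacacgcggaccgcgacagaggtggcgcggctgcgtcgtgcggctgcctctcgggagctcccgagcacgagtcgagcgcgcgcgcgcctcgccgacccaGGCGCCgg
The 250 bases before Tspan8 hold neither element and are 52.4% G and C with 4 CpG pairs. Those before Tspan5 hold 1 of each and are 70.8% G and C with 33 CpG pairs. Those before Tspan3 and Tspan31, the other members without overlap, hold neither. The Tspan3 window lies before a RefSeq start that is 4407 bases from the 5′ end of the deposited gene. Over the 250 bases before the start, searched on both strands, GGCGCC was present in 3 of the 27 members with a RefSeq promoter (Tspan2, Tspan5 and Tspan14) and in 9.59% of 32851 mouse promoters, and CAGAC or GTCTG in 14 of 27 and in 42.2% of promoters. These letters are a description of the windows, and binding was not measured.

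The family was dominated by a few members. Cd9, a tetraspanin of epithelial surfaces that is needed for sperm-egg fusion, was measured at 372.7, 368.4, 396.5 and 383.3 FPKM in the control libraries (replicates 1 to 4) and at 366.0, 389.7, 372.8 and 350.2 FPKM in the cKO libraries. In control libraries it made up 45.7% ± 0.470 of all tetraspanin FPKM, and in cKO libraries 45.3% ± 1.44 (SD, n = 4). Its levels were interleaved between the groups. The 5 highest members, Cd9, Cd81, Cd82, Cd63 and Tspan14, made up 79.0% of the family. Cd9 stood clear of Cd81, and Cd81 and Cd82 overlapped across the 8 libraries. Cd82 did not overlap with Cd63, Cd63 and Tspan14 overlapped, and Cd151 was separated from Tspan14 above it and Tspan4 below it. From Tspan4 downward every neighbouring pair in the order overlapped.

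**Figure D1:**
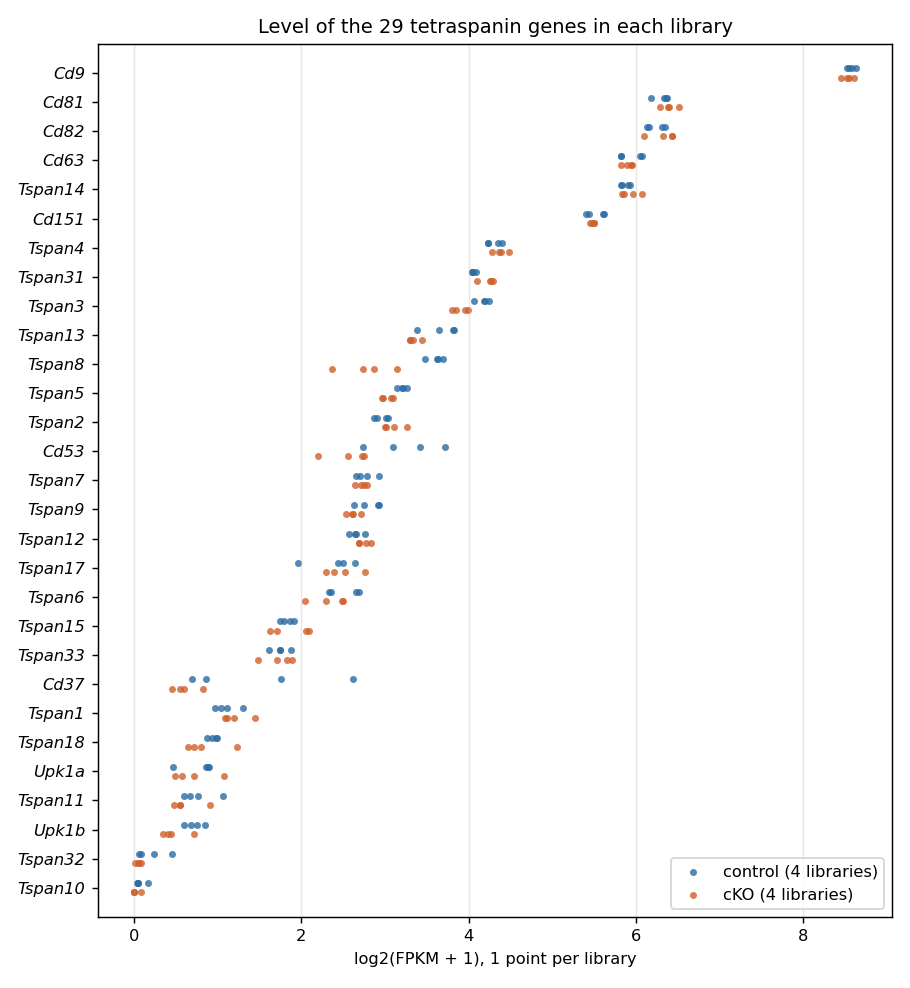
Levels of the 29 tetraspanin genes in each library, as log2(FPKM + 1), ordered by mean level, with 1 point per library and the groups in separate colours. Cd9 is the highest in both groups, and Tspan8 is among the members whose control and cKO points separate.

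Summed over the family, the control libraries held 832 ± 36.0 FPKM and the cKO libraries 816 ± 10.7 FPKM (SD, n = 4), and these sums overlapped (799 to 879 and 802 to 827 FPKM). Reads on tetraspanin genes were 0.225% ± 0.00690 and 0.212% ± 0.00971 of all reads on genes in control and cKO libraries (SD, n = 4). These shares did not overlap, at 0.221 to 0.236% in control and 0.199 to 0.220% in cKO libraries. The total of reads includes milk protein genes, whose reads were higher in the cKO libraries: the casein gene Csn2 alone had 174668 to 241266 reads in control and 320124 to 581774 in cKO libraries. Tspan8 made up 1.26 to 1.40% of the family's FPKM in control libraries and 0.517 to 0.962% in cKO libraries, without overlap.

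Of the 29 members, 27 passed the filter of a mean of 0.5 FPKM over the 8 libraries and were tested with limma on log2(FPKM + 1). At an unadjusted p under 0.05, 6 members were lower in cKO libraries (Tspan8, Tspan3, Tspan13, Tspan5, Cd53 and Cd37), 1 was higher (Tspan31) and 20 did not pass. The 6 lower members are 22.2% of those tested, beside 7.53% of all 15143 genes tested. Tspan8 was known to be lower when the family was chosen, and without it 5 of 26 tested members (19.2%) were lower. The 1 higher member is 3.7%, beside 8.85% of all genes. All members are protein-coding, and with protein-coding genes fitted alone 8 members were lower at an unadjusted p under 0.05 in limma. In that fit 9.09% of 12344 genes were lower. After Benjamini-Hochberg adjustment over all genes in limma, Tspan8 alone passed 0.05, where 0.304% of all genes were lower. The levels of Tspan8, Tspan3 and Tspan5 were lower in every cKO library than in any control library, and 4.6% of all genes showed such a separation. Those 3 genes are 11.1% of the 27 tested members, and Tspan3 and Tspan5 are 7.69% of the 26 without Tspan8. Tspan31 was higher without overlap, as were 6.1% of all genes. For these 4 members the exact two-sided permutation test gave p = 0.0286, the smallest that 4 against 4 allow.

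By the sign of the difference, 17 of the tested members were lower and 10 higher, with a median log2 fold change of -0.04, where the median over all genes was 0.000715. The members' median was -0.00220 without control replicate 3 and -0.0673 without control replicate 1. The members tested without Tspan8 had a median of -0.04 as well. The 95% interval of the log2 fold change lay wholly above the Tspan8 estimate for 24 of the 26 other members, and held it for Cd37 and Cd53. This count takes the Tspan8 estimate as exact, and Tspan8 was known to be low beforehand. The interval of Tspan8 itself, -1.16 to -0.49, also overlapped that of Tspan13 (-0.55 to -0.09). With a pseudocount of 0.1, or in limma-voom on reads recovered from the FPKM, this count was 21, and the intervals of the low genes Upk1a, Upk1b and Tspan11 held the Tspan8 estimate as well. When each library was instead scaled to the same sum of FPKM, 789 genes were higher and 1657 lower at an unadjusted p under 0.05, against 1340 and 1140 with the deposited scaling.

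**Figure D2:**
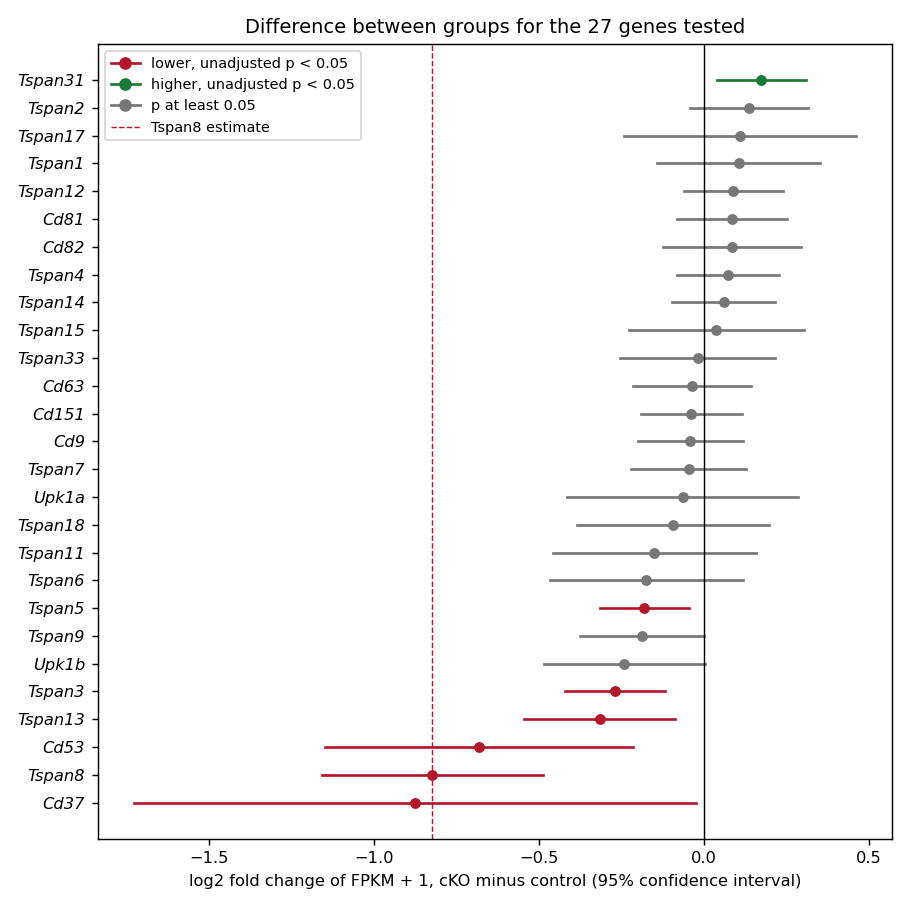
Difference in log2(FPKM + 1), cKO minus control, for the 27 tested tetraspanin genes, with 95% intervals from limma as bars, members past an unadjusted p of 0.05 in colour and a broken line at the Tspan8 estimate. Tspan8 lies at -0.82, Cd37 and Cd53 reach as low with wide intervals, and most other members lie within 0.2 of 0.

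Tspan8 (ENSMUSG00000034127, chr10:115816832-115849893, plus strand) fell in the cKO libraries. It was measured at 11.3, 10.1, 11.9 and 11.4 FPKM in the control libraries and at 6.33, 5.70, 7.88 and 4.14 FPKM in the cKO libraries. The highest cKO library, replicate 3, lay below the lowest control library, replicate 2. The group means were 11.2 ± 0.771 and 6.01 ± 1.55 FPKM (SD, n = 4), a change of -46.3%. The limma log2 fold change was -0.82 (SE 0.15, 95% interval -1.16 to -0.49), unadjusted p = 0.000363, adjusted p = 0.0461. Each value rested on 131 to 365 reads, and an antisense gene over its exons, 4930422I22Rik, had at most 4 reads in any library. In bulk RNA, fewer cells of a type and less RNA per cell cannot be told apart.

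The adjusted call of Tspan8 lay close to the threshold. Over 20 alternative settings its log2 fold change ranged from -0.95 to -0.68 and its unadjusted p stayed under 0.05 in all 20, while its adjusted p ranged from 0.0166 to 0.124 and was under 0.05 in 10. Leaving out any library except cKO replicate 3 raised the adjusted p above 0.05 (0.0662 to 0.124), and a replicate block in limma gave 0.0633. Replicates 1 and 2 taken alone differed by -0.74 on the log2 scale, and replicates 3 and 4 by -0.91. Cell type markers also moved in these libraries, beside 7.53% of all genes lower and 8.85% higher. Of 9 myoepithelial markers, the basal keratin gene Krt14 (log2 fold change -0.39, limma adjusted p = 0.209) and the basal regulator gene Trp63 (-0.42, adjusted p = 0.181) were lower at an unadjusted p under 0.05, the oxytocin receptor gene Oxtr was higher (0.85, adjusted p = 0.0644) and 6 did not pass. Of the 9, 6 had a higher mean, and the median over all 9 was 0.0266 on the log2 scale. All 6 endothelial markers had a lower mean and 3 passed, with Vwf past adjustment (log2 fold change -0.46, limma adjusted p = 0.0268) and a median log2 fold change of -0.256. All 6 fibroblast markers had a lower mean as well, with a median of -0.335, and 0 passed at an unadjusted p under 0.05 in limma. Their log2 differences ranged from -0.12 to 0.16 in replicates 1 and 2 and from -0.75 to -0.08 in replicates 3 and 4. All 3 tested adipocyte markers had a higher mean and 2 passed, with Cidec past adjustment (log2 fold change 0.86, limma adjusted p = 0.0377). Of 6 luminal markers, Elf5 was higher (0.82, limma adjusted p = 0.0591) and 5 did not pass. All 5 milk protein genes had a higher mean, 4 passed and 2 passed adjustment. Leukocyte markers are given with the leukocyte members. The part of these cell types in the Tspan8 difference was not tested.

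Tspan3 (chr9:56131725-56165477, minus strand), which binds the tight junction protein claudin-11 in oligodendrocytes, was lower by a smaller step. Its levels were 15.7, 17.2, 17.3 and 17.9 FPKM in control and 13.0, 14.9, 14.6 and 13.5 FPKM in cKO libraries, without overlap. The means were 17.0 ± 0.923 and 14.0 ± 0.894 FPKM (SD, n = 4), a change of -17.9%. The log2 fold change in limma was -0.27 (SE 0.07, 95% interval -0.42 to -0.12, unadjusted p = 0.00309, adjusted p = 0.101). Replicates 1 and 2 taken alone gave -0.23, and replicates 3 and 4 gave -0.31. Its adjusted p ranged from 0.0436 to 0.215 over 20 alternative settings and was under 0.05 in 1 of them, limma-voom with the replicate block.

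Tspan13 (chr12:36014557-36042500, minus strand), a partner of the calcium channel Cav2.2, was measured at 13.1, 9.40, 13.0 and 11.5 FPKM in control and at 9.90, 8.85, 9.14 and 8.88 FPKM in cKO libraries. The groups overlapped, since control replicate 2 lay below cKO replicate 1. The log2 fold change was -0.32 (SE 0.10, 95% interval -0.55 to -0.09), with a limma adjusted p of 0.174. Control replicates 1 and 3, the highest for Tspan13, were also the libraries with the most B cell RNA, described with the leukocyte members. Without them the log2 fold change was -0.16 (limma, unadjusted p = 0.151), a smaller value that follows from leaving out the highest controls and does not bear on a cause.

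The TspanC8 members bind the metalloprotease ADAM10 and guide its exit from the endoplasmic reticulum and its choice of substrates. Of the 6, 5 were tested and 1 passed, beside 7.53% of all genes lower: Tspan5 (chr3:138742195-138907905, plus strand). Tspan5 was measured at 8.21, 8.29, 7.88 and 8.62 FPKM in control and at 6.90, 7.38, 7.54 and 6.84 FPKM in cKO libraries, without overlap. The step was small, from 8.25 ± 0.308 to 7.17 ± 0.349 FPKM (SD, n = 4), or -13.1%. The log2 fold change was -0.18 (SE 0.06, 95% interval -0.31 to -0.05), unadjusted p = 0.0142, limma adjusted p = 0.182.

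The other TspanC8 members did not pass. Tspan14, the most abundant of them, was measured at 58.9, 55.8, 59.8 and 55.7 FPKM in control and at 56.8, 61.5, 66.1 and 56.3 FPKM in cKO libraries, and the groups overlapped. Tspan17 had means of 4.30 and 4.68 FPKM, Tspan15 of 2.57 and 2.70 FPKM and Tspan33 of 2.36 and 2.33 FPKM in control and cKO libraries. Tspan10, at 0 to 4 reads per library, was below the filter, with 0.128, 0.0320, 0.0331 and 0.0296 FPKM in control libraries, 0 in cKO replicates 1 to 3 and 0.0598 FPKM in cKO replicate 4. Adam10 itself was measured at 21.9 FPKM in control and 23.0 FPKM in cKO libraries (limma, unadjusted p = 0.439).

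**Figure D3:**
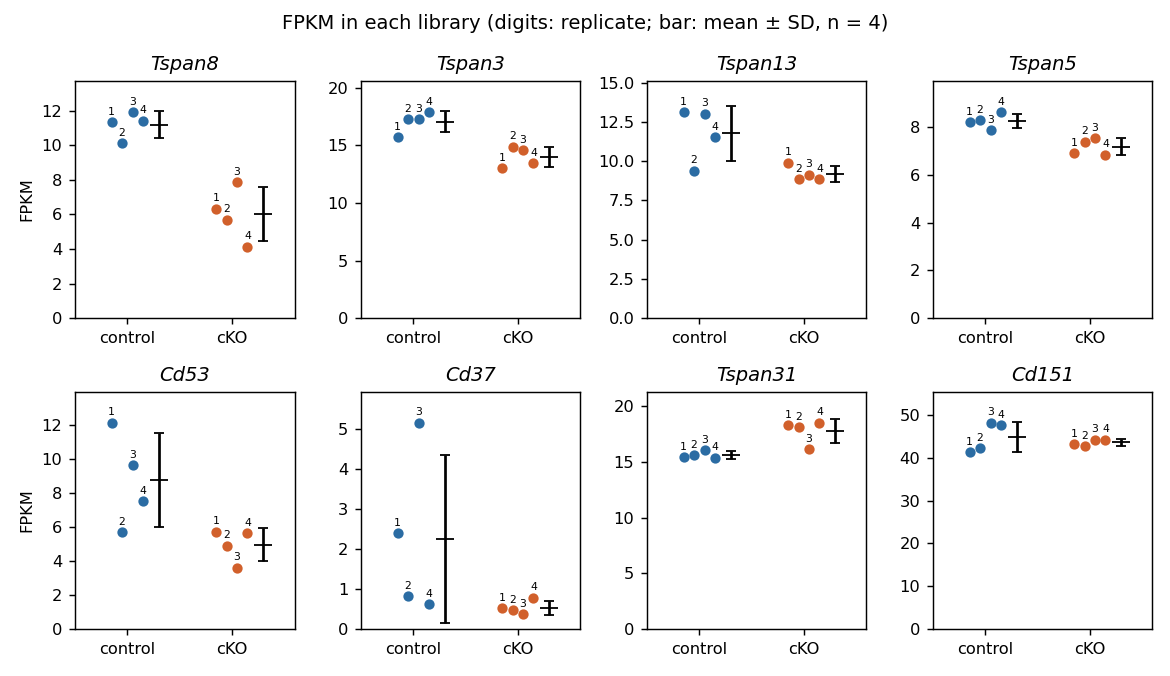
FPKM in each library for the 7 members past an unadjusted p of 0.05 and for Cd151, with replicate numbers beside the points and the mean ± SD (n = 4) as a bar, each axis starting at 0. Tspan8, Tspan3 and Tspan5 separate downward and Tspan31 upward, while Cd37 and Cd53 are high in control replicates 1 and 3.

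None of the 5 adhesion and integrin partners (Cd9, Cd81, Cd82, Cd151 and Tspan4) passed. For Cd9 the log2 fold change was -0.04 (limma, unadjusted p = 0.575). Cd81, which acts with integrins on many cells, was measured at 71.3, 81.9, 81.4 and 79.6 FPKM in control and at 83.4, 82.5, 77.3 and 90.7 FPKM in cKO libraries. Cd82, known as a metastasis suppressor, was measured at 70.1, 69.1, 80.6 and 78.2 FPKM in control and at 85.4, 67.6, 79.1 and 85.0 FPKM in cKO libraries. Both overlapped between the groups. Cd151, the closest partner of laminin-binding integrins, had means of 44.9 ± 3.55 and 43.6 ± 0.760 FPKM (SD, n = 4), and its log2 fold change of -0.04 had a 95% interval of -0.19 to 0.11. Tspan4, a component of migrasomes, had means of 18.8 ± 1.18 and 19.8 ± 1.20 FPKM (SD, n = 4). Its exons overlap those of Chid1 on the other strand, which had up to 425 reads, where Tspan4 had at least 671. Chid1 had means of 1.45 and 1.87 FPKM, without overlap.

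Cd63, which marks late endosomes and exosomes, was measured at 55.4, 55.7, 66.1 and 65.2 FPKM in control and at 60.6, 61.2, 58.5 and 55.6 FPKM in cKO libraries. The cKO libraries lay within the control range, and the log2 fold change was -0.03 (limma, unadjusted p = 0.668).

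Both tested leukocyte members, Cd53 and Cd37, were lower at an unadjusted p under 0.05, as were 4 of 7 tested leukocyte markers, and none of these passed adjustment in limma. Cd53 (chr3:106759921-106790149), found on most leukocytes, was measured at 12.2, 5.70, 9.66 and 7.56 FPKM in control and at 5.74, 4.91, 3.61 and 5.63 FPKM in cKO libraries. Cd37 (chr7:45233632-45239115), most abundant on B cells, was measured at 2.39, 0.820, 5.15 and 0.620 FPKM in control and at 0.515, 0.465, 0.376 and 0.780 FPKM in cKO libraries. Both groups overlapped for each gene, and control replicates 1 and 3 were the highest for both. The log2 fold changes were -0.68 for Cd53 (95% interval -1.15 to -0.21, limma adjusted p = 0.156) and -0.88 for Cd37 (95% interval -1.73 to -0.02, limma adjusted p = 0.292). Cd37 passed an unadjusted p of 0.05 in 11 of 20 alternative settings and Cd53 in 20 of 20. In limma, Cd37 did not pass with a block by replicate number (unadjusted p = 0.0613) or by replicates 1 and 2 against 3 and 4 (unadjusted p = 0.0611). The log2 fold change of Cd37 ranged from -1.94 in limma-voom with the replicate block to -0.50 without control replicate 3, and its FPKM means were 2.25 ± 2.09 and 0.534 ± 0.174 (SD, n = 4), a change of -76.2%. Cd37 shares exonic sequence with Tead2 on the other strand, and strand-specific counting is not stated. Tead2 reached 742 reads and Cd37 21 to 304, with Tead2 means of 7.66 and 7.02 FPKM.

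Tspan32, the other leukocyte member, lay below the filter with 1 to 39 reads. It was measured at 0.185, 0.0463, 0.373 and 0.0598 FPKM in control and at 0.0582, 0.0389, 0.0101 and 0.0345 FPKM in cKO libraries. A two-sided exact permutation test gave p = 0.0571. Its 2 highest libraries were again control replicates 1 and 3.

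The same libraries held the most B cell RNA. Cd79a, a chain of the B cell receptor, was measured at 6.06, 2.02, 14.0 and 1.32 FPKM in control and at 1.35, 1.04, 0.692 and 0.998 FPKM in cKO libraries. Cd79b, the other chain, was measured at 3.39, 1.57, 5.80 and 1.04 FPKM in control and at 0.796, 1.02, 0.660 and 0.715 FPKM in cKO libraries. The leukocyte markers Cd3e, Ptprc, Coro1a and Laptm5 were also highest in control replicates 1 and 3, with Cd3e at 0.523 and 0.980 FPKM there. Lyz2, Csf1r and Itgam did not follow this order, and Lyz2 had 136 FPKM in control replicate 3 and 152 FPKM in cKO replicate 1. The pattern was thus not limited to the B cell markers. Of the 9 leukocyte markers 7 were tested, all 7 had a lower mean in cKO libraries and 4 passed an unadjusted p of 0.05 in limma, beside 7.53% of all genes. Without control replicates 1 and 3, an alternative chosen after the values were seen, the log2 fold change was -0.17 for Cd37 (limma, unadjusted p = 0.265, adjusted p = 0.742) and -0.36 for Cd53 (unadjusted p = 0.0853, adjusted p = 0.562). These are also the highest controls for both genes, so smaller differences follow from leaving them out. The log2 fold change was -0.77 for Tspan8 (limma, unadjusted p = 0.00614, adjusted p = 0.321). At an unadjusted p under 0.05, 3 members were lower (Tspan8, Tspan3 and Tspan5) and 0 were higher, beside 4.85% and 5.34% of all genes. The libraries left out include the lowest control for Tspan3 and for Tspan5, whose log2 fold changes became -0.31 and -0.21. This choice of libraries does not bear on a cause. Without the leukocyte members, 4 of 25 tested members were lower (16%, beside 7.53% of all genes) and 1 was higher with all 8 libraries. Without Tspan8 as well, 3 of 24 were lower (12.5%). The part of leukocyte content in these differences was not tested.

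**Figure D4:**
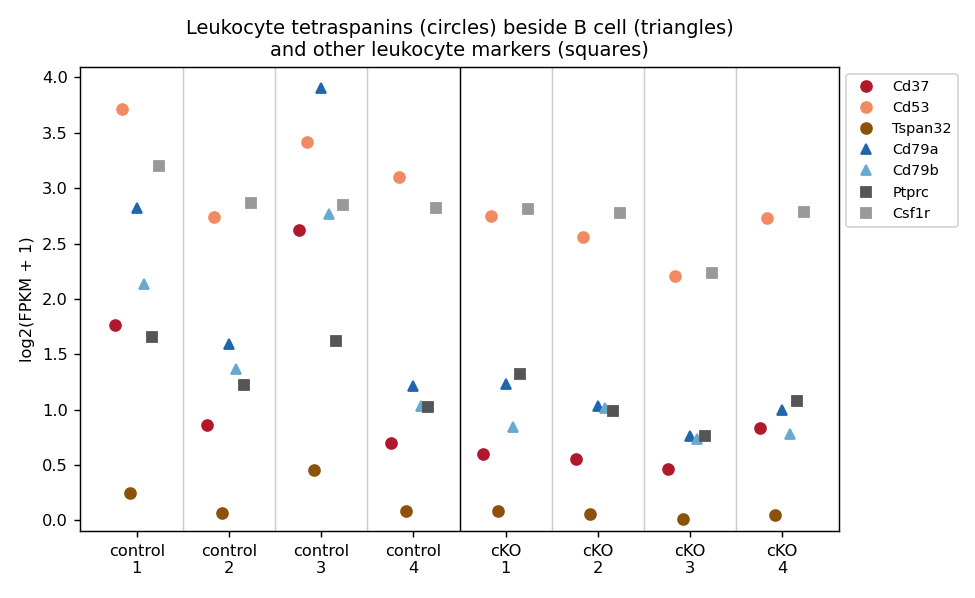
Levels of the leukocyte tetraspanins Cd37, Cd53 and Tspan32 beside the B cell markers Cd79a and Cd79b and the leukocyte markers Ptprc and Csf1r in each library, as log2(FPKM + 1). Control replicates 1 and 3 hold the highest Cd37, Cd53, Cd79a and Cd79b.

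Tspan31 (chr10:127067280-127070264), first known from a region amplified in sarcomas, was the 1 member higher in cKO libraries. It was measured at 15.4, 15.6, 16.1 and 15.4 FPKM in control and at 18.3, 18.1, 16.2 and 18.5 FPKM in cKO libraries. The groups did not overlap, although cKO replicate 3 lay next to control replicate 3. The log2 fold change was 0.17 (SE 0.06, 95% interval 0.04 to 0.31, unadjusted p = 0.0173, adjusted p = 0.198 in limma), and it passed 0.05 unadjusted in 18 of 20 alternative settings. It did not pass when each library was scaled to the same sum of FPKM (log2 fold change 0.12, unadjusted p = 0.175, limma adjusted p = 0.518) or of reads (0.12, unadjusted p = 0.102, adjusted p = 0.393). Without control replicates 1 and 3 its log2 fold change was 0.19 (limma unadjusted p = 0.0660, adjusted p = 0.528). Its exons overlap those of the cell cycle kinase gene Cdk4 on the other strand, which reached 3064 reads, where Tspan31 had 564 to 775. Cdk4 had means of 44.7 ± 5.48 and 42.0 ± 2.86 FPKM (SD, n = 4).

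The remaining members did not pass. Tspan9, a platelet tetraspanin, lay just outside the threshold, with means of 6.02 ± 0.665 and 5.15 ± 0.330 FPKM (SD, n = 4) and a limma adjusted p of 0.306, and passed an unadjusted p of 0.05 in 12 of 20 alternative settings. Of the uroplakin tetraspanins, which form urothelial plaques, Upk1b had 0.651 ± 0.125 and 0.401 ± 0.163 FPKM (SD, n = 4) on 11 to 29 reads, and passed the filter through the control level. Its unadjusted p was under 0.05 in 10 of 19 alternative settings, with a log2 fold change down to -0.74 in limma-voom. Upk1a had means of 0.726 and 0.660 FPKM. Tspan12, which strengthens Norrin signalling through Fzd4, had means of 5.32 ± 0.348 and 5.72 ± 0.312 FPKM (SD, n = 4). Tspan2, Tspan7, Tspan6, Tspan1, Tspan18 and Tspan11 had means of 6.78, 5.83, 4.73, 1.16, 0.925 and 0.721 FPKM in control and 7.57, 5.61, 4.09, 1.33, 0.826 and 0.549 FPKM in cKO libraries, with log2 fold changes from -0.17 to 0.14.

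RNA of 20 partner genes was read as well, and no protein was measured. They encode laminin-binding integrins, immunoglobulin-like partners, ADAM10, Norrin and its receptor, uroplakin partners, vesicle adaptors and photoreceptor tetraspanin-like proteins outside the naming rule. Of these genes, 17 were tested. At an unadjusted p under 0.05 in limma, 3 were lower and 1 was higher, beside 7.53% and 8.85% of all genes, and 0 passed after adjustment. Their median log2 fold change was -0.00702. Igsf3, an immunoglobulin-like partner, went from 18.4 ± 1.43 FPKM in control to 14.4 ± 1.12 FPKM in cKO libraries (SD, n = 4), with a log2 fold change of -0.33 (limma adjusted p = 0.0871). The integrin chain gene Itga7 had 2.10 ± 0.183 and 1.52 ± 0.228 FPKM (log2 fold change -0.30), and Upk2 had 1.04 ± 0.379 and 0.552 ± 0.0920 FPKM (-0.38). Upk2 rested on 8 to 32 reads per library, and the limma adjusted p was 0.148 for Itga7 and 0.198 for Upk2. Itgb4, a chain of the hemidesmosome integrin, had 16.2 ± 0.701 and 18.3 ± 1.32 FPKM (log2 fold change 0.16). The other laminin-binding integrin genes, Itga3, Itga6 and Itgb1, had means of 53.8, 57.1 and 163 FPKM in control and 52.8, 61.0 and 167 FPKM in cKO libraries and did not pass. Sdcbp, which encodes the vesicle adaptor syntenin and had 62.0 ± 2.09 and 68.7 ± 4.50 FPKM (SD, n = 4), was higher without overlap and lay just outside the threshold.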

How the data were processed

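Mammary epithelium of 4 control and 4 cKO mice was profiled by RNA-seq (NEBNext Ultra kit). Per the study's methods, the authors mapped reads with Hisat2 to GRCm38, calculated FPKM and compared the groups with DESeq2 at p under 0.05; the deposited table holds those FPKM. The submitters' processing notes also name featureCounts 1.5.0-p3, StringTie 1.3.3b and mm9, although the coordinates of all 29 members match GENCODE release 21 on GRCm38. Strand-specific counting is not stated in the sources used here.

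FPKM times gene length, divided by 1 fitted step per library, gave whole reads for every value above 0 (tolerance 0.01 of a read). These steps followed median-of-ratios size factors and not read totals, so the deposited FPKM were already scaled between libraries. FPKM are not counts, so log2(FPKM + 1) was tested with limma 3.58.1 in R 4.3.3 (empirical Bayes with trend, Benjamini-Hochberg adjustment) over the 15143 genes with a mean of at least 0.5 FPKM; the fold changes understate changes of low genes. The same procedure was tested on simulated data. Single genes under the filter were tested by exact permutation. Figures and sequences were handled in Python 3.11.15 with pandas 2.3.3 and matplotlib 3.10.9.

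Members, role groups, partner and marker lists and alternatives were chosen with earlier results of these data known. All members are named. 1 gene was left out of the partner list, for a reason unrelated to its values, and is not reported here. Tspan8, each member past an unadjusted p of 0.05 or without overlap and the 5 highest are given for every library. The alternatives were a pseudocount of 0.1, other scalings, a block by replicate number or by replicates 1 and 2 against 3 and 4, other filters, no trend, protein-coding genes alone, limma-voom on recovered reads and each library left out. Leaving out control replicates 1 and 3 together was added after the values were seen. Depth was 16123108 to 19896988 reads on genes per library. Both the number of mice and the number of reads limit the precision, and their parts were not separated.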

Additional observations from a re-analysis of the deposited data

Results flagged for a closer look

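In 6 of 98 groups of 4 libraries, over the members and partner genes, the highest or lowest library lay far from the other three by Dixon's criterion, where chance gives about 4.9. Upk1a was low in control replicate 3 at 0.378 FPKM (9 reads), with 0.813 to 0.862 FPKM in the other controls. Tspan11 was high in cKO replicate 1 at 0.875 FPKM (90 reads), with 0.394 to 0.467 FPKM in the others. Tspan10 was high in control replicate 1 at 0.128 FPKM (4 reads, others 0.0296 to 0.0331 FPKM) and in cKO replicate 4 at 0.0598 FPKM (2 reads, others 0). Sdcbp was high in cKO replicate 1 at 75.4 FPKM (10054 reads), with 65.8 to 66.9 FPKM in the others. Prph2 was at 0 in control replicate 1, with 0.0177 to 0.0199 FPKM in the other controls. Tspan8 was not among them in either group.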

How the results depend on the processing

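Between 5 and 8 members were lower at an unadjusted p under 0.05 in every planned setting, and 3 without control replicates 1 and 3. Over the same planned settings 4.8 to 11.8% of all genes were lower, the most with library totals, where 8 members were lower. The number higher was 0 with equal sums of FPKM, with library totals and without control replicates 1 and 3, and 2 with the block by replicate set (1 and 2, or 3 and 4). Those 2 were Tspan31 and Tspan2. Of all 15143 genes, 789 were higher with equal sums, 864 with library totals and 809 without those controls. With the block by set 1797 were higher, against 1340 without a block. The number past adjustment was 0 with the replicate block, with no filter, without the trend and without control replicates 1 and 3, 2 when limma-voom took the replicate block, and 0 to 1 with each library left out. The log2 fold change of Tspan8 was -0.82 with the replicate block (adjusted p = 0.0633 in limma), with no filter (0.108) and without the trend (0.0537), -0.77 without control replicates 1 and 3 (0.321), and -0.95 to -0.68 with each library left out. The members' median was -0.0969 with equal sums and -0.0956 with library totals, where the median of all genes was -0.0476 and -0.0459. Partner genes past the threshold numbered 3 to 5 with each library left out, where 916 to 1194 of 15143 genes were lower and 1087 to 1321 higher. With no filter they numbered 6, where 1506 of 31373 genes were lower and 1729 higher. Of all genes, 135 passed adjustment, against 50 with the replicate block, 442 with the other block, 10 with no filter, 266 with protein-coding genes alone, 252 with limma-voom, 680 when limma-voom took the replicate block, 0 to 78 with each library left out, and 1 without control replicates 1 and 3, where 1544 passed unadjusted against 2480. Small log2 fold changes changed sign: with equal sums to -0.000324 for Tspan14 and -0.00687 for Tspan15, with library totals to -0.00552 for Tspan15, and without control replicates 1 and 3 to 0.00441 for Tspan7 and 0.0499 for Tspan33. With each library left out they ranged from -0.0759 to 0.00805 for Cd63, -0.0837 to 0.0106 for Tspan7, -0.0304 to 0.195 for Tspan17, -0.0360 to 0.120 for Tspan15, -0.0727 to 0.0628 for Tspan33 and -0.185 to 0.0121 for Upk1a. The cause of these changes was not tested. Correlations of same-numbered deviations were 0.0797 to 0.137, and 3 of 8 libraries correlated best with their own number, so the numbers were not taken as pairs. Deviations were shared by set: the 8 correlations within replicates 1 and 2 or within 3 and 4 were 0.0797 to 0.178, and the 8 across these sets -0.210 to -0.0720. Among the members, depth limits Tspan10, Tspan32, Upk1a and Upk1b, with 0 to 39 reads per library. The partner gene Upk2 had 8 to 32 reads.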

Other observations

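Some tetraspanin genes are neighbours in the genome; no test was made of neighbouring pairs. Cd151 and Tspan4 lie 3.767 kb apart on chromosome 7, and neither passed an unadjusted p of 0.05 in limma. Tspan9 and Tspan11 lie 7.419 kb apart on chromosome 6, with log2 fold changes of -0.19 and -0.15. Tspan32 and Cd81 lie 33.1 kb apart on chromosome 7. Tspan32 had its highest levels in control replicates 1 and 3, at 0.185 and 0.373 FPKM, while Cd81 had 71.3 and 81.4 FPKM there and 77.3 to 90.7 FPKM in the cKO libraries.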
